A study of Saccharomyces cerevisiae with 16 samples.

Results

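The synHPRT1 strains were compared between 2 genomic contexts, a yeast artificial chromosome (YAC) and an integrated copy on chromosome XI, in 4 H3K4me3 CUT&RUN libraries chosen by their titles out of 16 samples in the series. synHPRT1 is a chemically synthesized human HPRT1 locus that had been placed in Saccharomyces cerevisiae. Both strains were BY4741 derivatives carrying his3Δ1, leu2Δ0, met15Δ0 and ura3Δ0. In the YAC strain the locus sat in the pLM1110 vector, a CEN/ARS plasmid with a LEU2 marker, and the cells were grown in SC–Leu, a synthetic medium lacking leucine. In the integrated strain the locus replaced YKL162C-A on chromosome XI, the vector was absent, and the cells were grown in YPD, a rich medium. Context and medium therefore cannot be told apart. Each context was 1 engineered strain with 2 libraries from independent colonies, so the spread between libraries is that between colonies of 1 strain. For YAC replicate 2 the source name in the labels gave the other locus (synHPRT1R), whereas its title, its genotype and the contig in its peak list gave synHPRT1, and it was kept as synHPRT1. The IgG libraries were not analysed here.

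Trimethylation of lysine 4 of histone H3 is laid down in yeast by a single methyltransferase, Set1, within the COMPASS complex. COMPASS is recruited with the early elongating form of RNA polymerase II, and the mark therefore lies on the first nucleosomes of transcribed genes. In CUT&RUN, antibody-bound nucleosomes are cut loose by a tethered nuclease, and the fragments set free are sequenced. A peak list reports where such fragments exceed the local background, by how many fold at the summit (fold enrichment) and with what −log10 q.

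The 4 lists held 3642 to 4049 peaks, of which 3573 to 3963 lay on chromosomes I to XVI. The integrated libraries had fewer nuclear peaks (3725 and 3573) than the YAC libraries (3963 and 3864), with a higher median fold enrichment (2.36 and 2.26 against 2.04 and 2.04) and a larger median width (664 and 699 bp against 540 and 605 bp). Depth was solved from the enrichment and the p-value at the summits, which gave a genome-wide background of 85.4 and 92.7 fragments per base in the YAC libraries and 76.2 and 76.5 in the integrated libraries. The weakest peak of each list had a −log10 q of 1.42 to 1.66, so a region without a peak is below that calling limit and need not lack the mark.

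Most of the nuclear H3K4me3 landscape was found in both contexts. Merging the peaks of the 4 libraries gave 3830 nuclear regions, and 3013 of them had a peak in every library. A peak in both YAC libraries and in neither integrated library was found at 57 regions (1.49% of all regions), and the reverse pattern at 97 (2.53%). Just outside this rule, 81 regions had peaks in both YAC libraries and in 1 integrated library, and 236 had peaks in both integrated libraries and in 1 YAC library. The context-restricted regions were weak. Their median fold enrichment was 1.56 for YAC-only and 1.70 for integrated-only regions. Regions shared by the 4 libraries had 2.31, with 2.17 in the YAC libraries alone and 2.47 in the integrated libraries alone. A mean −log10 q of at least 10 was reached by 7 of 57 YAC-only, 35 of 97 integrated-only and 2675 of 3013 shared regions. No test was applied, since 2 libraries against 2 cannot give an exact p below 0.333. When only peaks with a −log10 q of at least 10 were used, the counts became 28 and 177, and only 4 and 24 of the original regions were among them.

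A region was assigned to a protein-coding gene when its summit lay from 200 bp upstream to 800 bp downstream of the annotated coding start. This held for 36 of 57 YAC-only regions, 63 of 97 integrated-only regions and 86.5% of shared regions. Within that window the median summit lay 164 bp after the start in YAC-only regions, 59 bp after it in integrated-only regions and 73 bp after it in shared regions. Shared regions read in the YAC libraries alone also had a later median summit (93 bp) than in the integrated libraries alone (69 bp), and these positions were not tested. A shared region lay closer than 500 bp to 24 YAC-only regions (42.1%), to 19 integrated-only regions (19.6%) and to 25.0% of the shared regions themselves.

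The strongest YAC-only region covered LEU2 on chromosome III (chrIII:91120-92412), which encodes β-isopropylmalate dehydrogenase of leucine synthesis. Its fold enrichment was 4.68 and 4.29 in the YAC libraries, and no peak lay within 500 bp of the gene in the integrated libraries. The gene is deleted from the genome of both strains and is carried by the YAC vector, and the peaks covered 98.4% and 99.5% of it. The same pattern, with peaks in both YAC libraries and in neither integrated library, was found at LEU2 in the synHPRT1R strains. The second region lay in the ribosomal DNA repeat (chrXII:457847-458416) with a fold enrichment of 1.20 and 1.21. Its copies cannot be told apart by alignment.

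The remaining YAC-only regions by rank lay at genes of varied function. SEN15, a subunit of the tRNA splicing endonuclease, had a fold enrichment of 2.00 and 1.94. HDA2, a subunit of the HDA1 histone deacetylase complex, had 1.77 and 1.95. COT1, a vacuolar transporter of zinc and cobalt, had 1.85 and 1.71, and RFA3, a subunit of replication protein A, had 1.74 and 1.67. NGL3 (1.91 and 1.91), AEP2 (1.71 and 1.83), YNL058C (1.68 and 1.67) and MCH4 (1.65 and 1.77) completed the gene starts among the first 12. The other 2 lay outside start windows. One was 250 bp upstream of CYC1, the gene of iso-1-cytochrome c (1.88 and 1.66), and one was 1370 bp upstream of SAM3, an S-adenosylmethionine permease (1.77 and 1.71). Of these regions, those at HDA2 and CYC1 had the same YAC-only pattern in the synHPRT1R strains, whereas SEN15 and NGL3 had peaks in all 4 synHPRT1R libraries. The sequence around the SEN15 summit (sacCer3, chrXIII:391130-391370, plus strand) is shown as the leading YAC-only gene start outside the marker and the repeat, with the 11 bases around the summit in capitals.
SEN15: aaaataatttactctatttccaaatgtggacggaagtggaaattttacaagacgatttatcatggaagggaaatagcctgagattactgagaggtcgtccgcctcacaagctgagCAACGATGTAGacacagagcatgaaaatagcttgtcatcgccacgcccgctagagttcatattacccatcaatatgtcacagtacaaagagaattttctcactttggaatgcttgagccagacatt

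Among integrated-only regions, 11 of the first 12 lay at gene starts. NUP60, which encodes a nucleoporin of the nuclear basket, had a fold enrichment of 2.67 and 2.48 with its summit 9 bp after the start codon. NEJ1, a regulator of non-homologous end joining, had 2.21 and 2.41. MRI1, an enzyme of the methionine salvage pathway, had 2.16 and 2.27, and AHC2, a component of the ADA histone acetyltransferase complex, had 2.40 and 2.00. PRP9, a splicing factor, had 2.29 and 2.12. FRE1, the plasma membrane ferric and cupric reductase, had 2.06 and 2.30. TOP2, topoisomerase II, had 1.99 and 2.31. AAP1 (2.12 and 2.14), VPS53 (2.06 and 2.19), HGH1 (2.202 and 2.03) and YLL032C (2.27 and 1.86) followed. AHC2 and VPS53 had the same integrated-only pattern in the synHPRT1R strains, and NEJ1, MRI1 and PRP9 had peaks in all 4 synHPRT1R libraries. The sequence around the NUP60 summit (sacCer3, chrI:152146-152386, plus strand) is given with the start codon in capitals.
NUP60: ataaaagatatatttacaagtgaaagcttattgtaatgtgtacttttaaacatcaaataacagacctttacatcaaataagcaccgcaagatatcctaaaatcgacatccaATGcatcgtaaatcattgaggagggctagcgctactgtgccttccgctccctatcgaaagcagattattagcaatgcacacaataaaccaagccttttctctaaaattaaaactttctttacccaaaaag

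**Figure D1:**
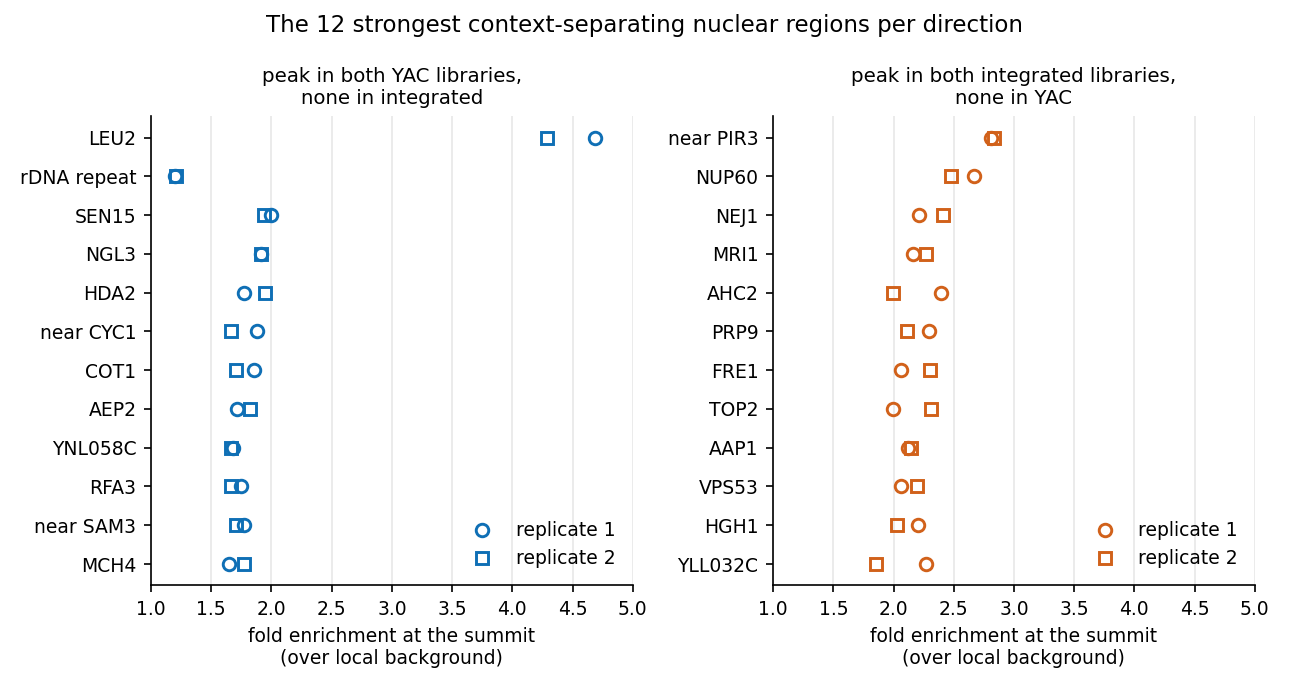
Fold enrichment at the summit (x axis) of the 12 strongest YAC-only (left) and integrated-only (right) nuclear regions, with 1 symbol per library. Apart from LEU2 at 4.68 and 4.29, the YAC-only regions lay at or below 2.00, whereas the integrated-only regions lay between 1.86 and 2.84. Shared regions also had a lower median in the YAC libraries (2.17) than in the integrated libraries (2.47).

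The strongest integrated-only region bordered the insertion site. It spanned chrXI:145824-146210, in the intergenic stretch 686 bp downstream of PIR3, and had a fold enrichment of 2.81 and 2.84 and a −log10 q of 37.2 and 38.2. No peak lay there in either YAC library. The homology arms used for integration were chrXI:146136-146350 and chrXI:146508-146829, so the region ended inside the left arm, and 157 bp lay between the arms in the reference. In the synHPRT1R strains, whose locus was integrated at the same site, the region again had peaks in both integrated libraries and in no YAC library. On the right side no peak was called in any of the 4 libraries within 6 kb. To the left, weak peaks upstream of PIR3 and PIR1, which encode cell wall proteins with internal repeats, were present in both contexts, at fold enrichments of 1.33 and 1.46 in the YAC libraries and of 1.40 to 1.72 in the integrated libraries. The sequence across the summit and the border of the left arm (sacCer3, chrXI:145964-146204, plus strand) is shown with the bases of the arm in capitals.
Left border: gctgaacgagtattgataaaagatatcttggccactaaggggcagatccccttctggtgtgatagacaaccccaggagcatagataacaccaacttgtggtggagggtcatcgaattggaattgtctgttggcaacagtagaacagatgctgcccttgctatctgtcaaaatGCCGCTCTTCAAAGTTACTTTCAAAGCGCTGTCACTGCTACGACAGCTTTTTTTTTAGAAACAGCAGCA

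**Figure D2:**
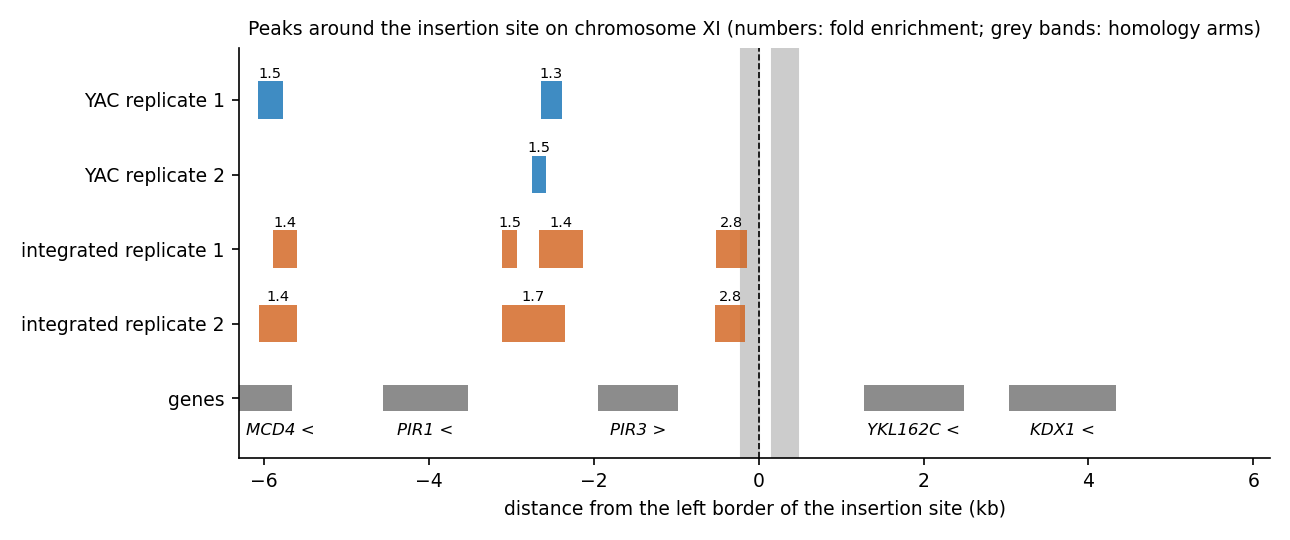
Called peaks (bars, labelled with fold enrichment) in the 4 libraries against distance from the left border of the insertion site in kb, with annotated genes below and the homology arms in grey. A peak at the left arm (2.81 and 2.84) was called in both integrated libraries and in neither YAC library, and none was called to the right.

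Other marker genes carried no context-restricted peak over the gene. URA3 and MET17 had no peak over the gene in any library, and both genes are deleted in both strains. A YAC-only region near URA3 (chrV:117171-117471) lay at the start of the neighbouring TIM9, a chaperone of the mitochondrial intermembrane space, with a fold enrichment of 1.67 and 1.75. HIS3 was covered by a wide peak in all 4 libraries with the summit upstream of the gene. The constitutive genes ACT1, TDH3 and PGK1, for actin and 2 glycolytic enzymes, also lay under peaks in all 4 libraries. Their strongest peaks within 500 bp had fold enrichments of 2.72, 2.51, 3.51 and 3.29 at ACT1, of 2.25, 2.13, 2.33 and 2.36 at TDH3 and of 2.73, 2.46, 3.15 and 2.98 at PGK1, in the order YAC replicates 1 and 2 and integrated replicates 1 and 2. At ACT1 these summits lay far upstream of the gene, and except in YAC replicate 1 they were those at the start of the nearby TUB2. In the ACT1 start window the strongest summits had 2.00, 1.93 and 2.48 in YAC replicates 1 and 2 and integrated replicate 1. Integrated replicate 2 had no summit in that window.

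To ask where the height of the mark differed, the 3013 regions with a peak in all 4 libraries were tested with limma on log2 fold enrichment centred on each library's median. At an adjusted p under 0.05, 42 regions (1.39%) were higher in the YAC strain and 28 (0.929%) were higher in the integrated strain. The changes were small, with log2 differences of 0.36 to 0.71 in the YAC direction and of 0.35 to 0.47 in size in the integrated direction. Without centring, the median log2 difference was −0.17 and the calls became 12 and 776. After quantile normalization they were 6 and 2, namely RIP1, YAH1, ARG1, KTR2, MOT3 and ARO4 in the YAC direction and ASP3-2 and TYW1 in the integrated direction. Leaving out 1 library gave 14 and 11 calls without YAC replicate 1, 91 and 60 without YAC replicate 2, 12 and 10 without integrated replicate 1, and 22 and 13 without integrated replicate 2. The differences also moved with the level of the region. The median log2 difference was 0.06 in the 1005 regions of lowest mean fold enrichment, which held 36 of the 42 YAC-higher calls, and −0.05 in the 1005 of highest, which held 12 of the 28 integrated-higher calls. The part of this relation in the calls was not tested. A block for the replicate number, which did not pair the libraries, gave 72 and 52.

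**Figure D3:**
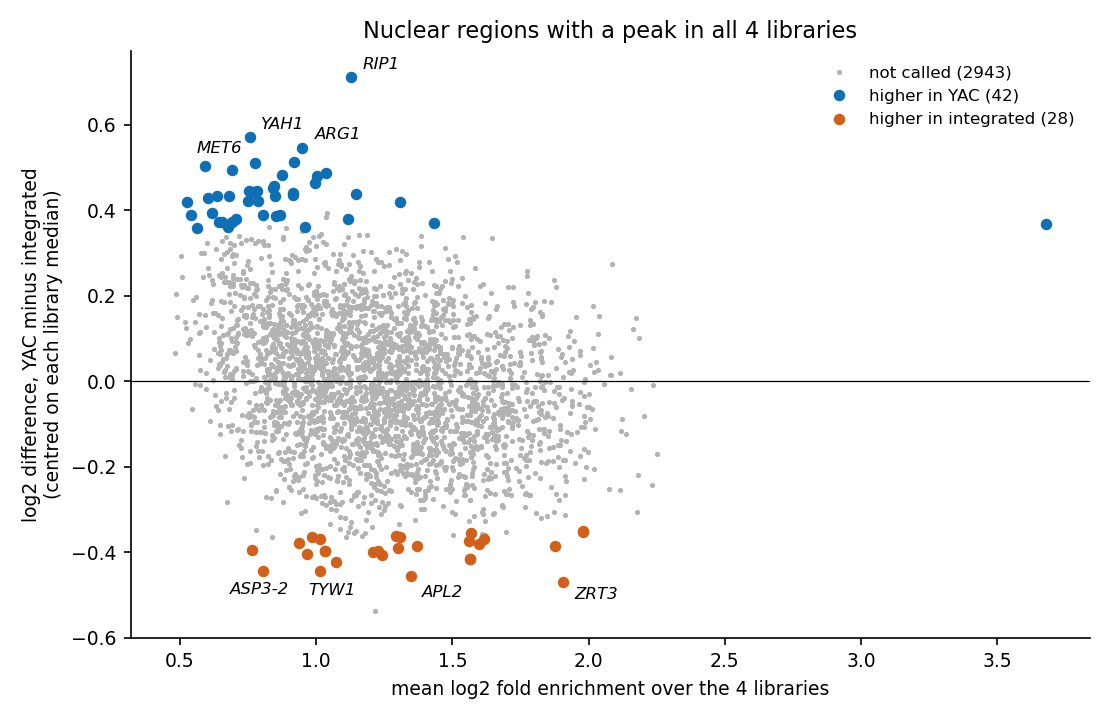
Centred log2 difference (YAC minus integrated, y axis) against mean log2 fold enrichment (x axis) for the 3013 shared nuclear regions, with called regions in colour. The 42 YAC-higher regions lie mostly at low enrichment, and the isolated point on the right is YLR162W.

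Among the regions higher in the YAC strain, RIP1, the Rieske iron-sulfur protein of respiratory complex III, had the largest difference, with fold enrichments of 2.77 and 2.51 in the YAC libraries and 1.83 and 1.81 in the integrated libraries. Its 2 pairs of values did not overlap, and the log2 difference was 0.71 ± 0.10 (SE, limma adjusted p = 0.000128). The summit lay 340 bp upstream of the coding start. YAH1, the mitochondrial ferredoxin required for iron-sulfur cluster assembly, followed with 2.099 and 1.80 against 1.58 and 1.37 (log2 difference 0.57, limma adjusted p = 0.005).

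ARG1, argininosuccinate synthase, had fold enrichments of 2.07 and 2.33 against 1.74 and 1.65 (0.55, limma adjusted p = 0.005). Only in YAC replicate 2 did a summit lie in the ARG1 start window. The values of the other libraries come from summits elsewhere in the same merged region. ORT1, the mitochondrial ornithine carrier that serves arginine synthesis, had 2.18 and 1.91 against 1.59 and 1.70 (0.48, adjusted p = 0.0126). MET6, methionine synthase, had 1.77 and 1.61 against 1.35 and 1.34 (0.50, adjusted p = 0.0102), and ARO4, the first enzyme of aromatic amino acid synthesis, had 2.30 and 2.16 against 1.89 and 1.72 (0.48, adjusted p = 0.0113). At these 4 genes, which were chosen as called in this direction, both YAC values exceeded both integrated values. That order was found at 3.62% of all shared regions in these uncentred values and at 24.4% in the centred values used for the test. RIP1, YAH1 and ARG1 were the 3 YAC-higher regions that stayed under the threshold in all 9 alternative fits of the same regions.

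The other regions by rank were KTR2, a mannosyltransferase (0.51), HSP150, a heat-inducible cell wall protein of the PIR family (0.51), CTT1, cytosolic catalase (0.49), and MOT3, a transcription factor (0.49). The CTT1 summit lay 499 bp upstream of the gene, outside the start window, and its call was lost after quantile normalization. In the synHPRT1R strains the log2 difference was −0.19 at CTT1 and 0.15 at MOT3. At HSP150 the fold enrichments were 2.00 and 1.85 in the YAC libraries and 1.44 and 1.62 in the integrated libraries. A separate integrated-only region (chrX:119812-120140) lay 542 bp upstream of the same gene, with 2.11 and 1.95. HSP150 thus carried a higher peak over its start in one context and an additional called peak upstream in the other. The start call was kept in 6 of 9 alternative fits and lost after quantile normalization, and it could not be read in all 8 libraries. The upstream stretch without a called peak need not lack the mark. The sequences of the RIP1 summit (sacCer3, chrV:106800-107040, plus strand, 11 summit bases in capitals) and of the ARG1 promoter (chrXV:218961-219260, plus strand, start codon in capitals) are shown for 2 of the 3 regions called in all the alternative fits.
RIP1: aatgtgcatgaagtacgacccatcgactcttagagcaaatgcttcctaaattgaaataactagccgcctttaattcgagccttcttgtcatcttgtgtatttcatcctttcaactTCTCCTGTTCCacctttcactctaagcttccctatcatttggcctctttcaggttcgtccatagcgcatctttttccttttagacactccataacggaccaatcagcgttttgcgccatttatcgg
ARG1: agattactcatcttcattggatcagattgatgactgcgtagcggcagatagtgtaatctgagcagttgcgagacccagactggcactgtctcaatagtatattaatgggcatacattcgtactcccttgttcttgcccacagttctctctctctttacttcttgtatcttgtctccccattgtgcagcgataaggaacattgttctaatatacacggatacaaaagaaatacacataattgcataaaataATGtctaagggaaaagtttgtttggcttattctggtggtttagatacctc

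Regions higher in the integrated strain were led by ZRT3, the vacuolar zinc exporter, where the region spanned the intergenic space shared with LST4. Its fold enrichments were 3.13 and 2.88 in the YAC libraries and 4.74 and 4.63 in the integrated libraries (log2 difference −0.47 ± 0.10, SE, limma adjusted p = 0.0126). APL2, the β-adaptin of the AP-1 clathrin adaptor, had 1.98 and 2.11 against 3.04 and 3.29 (−0.46). TYW1, an enzyme of wybutosine synthesis in tRNA, had 1.70 and 1.56 against 2.56 and 2.44 (−0.44). ASP3-2, one of the tandem genes of the secreted asparaginase, had 1.37 and 1.45 against 2.35 and 1.99 (−0.44). Its near-identical neighbours make the position of these fragments uncertain. RTT103, which binds the polymerase tail at termination (−0.42), PGC1, a phospholipase (−0.42), SEC26, the β-subunit of the COPI coat (−0.42), MSO1, a factor of secretory vesicle fusion (−0.41), SAD1 (−0.40) and YNL234W (−0.40) followed. The PGC1 summit lay 215 bp upstream of the gene, in a region that also covered part of HRR25. In these 10 regions, chosen as called in this direction, both integrated values exceeded both YAC values, an order that these uncentred values showed at 62.3% of all shared regions. None of the 28 integrated-higher regions stayed under the threshold in all 9 alternative fits, and only TYW1 and ASP3-2 were called after quantile normalization. In the synHPRT1R strains the log2 difference at ZRT3 was −0.002. The difference there was positive at APL2 (0.08), RTT103 (0.09), SEC26 (0.09), MSO1 (0.13) and SAD1 (0.01). It was negative at TYW1 (−0.10), ASP3-2 (−0.04), PGC1 (−0.27) and YNL234W (−0.31). The ZRT3 summit sequence (sacCer3, chrXI:118443-118683, plus strand, 11 summit bases in capitals) is shown as that with the largest difference of these 10 regions.
ZRT3: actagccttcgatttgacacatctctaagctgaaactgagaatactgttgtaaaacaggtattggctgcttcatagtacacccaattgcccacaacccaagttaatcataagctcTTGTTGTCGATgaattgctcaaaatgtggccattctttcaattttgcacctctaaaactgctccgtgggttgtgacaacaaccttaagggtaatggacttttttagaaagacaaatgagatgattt

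**Figure D4:**
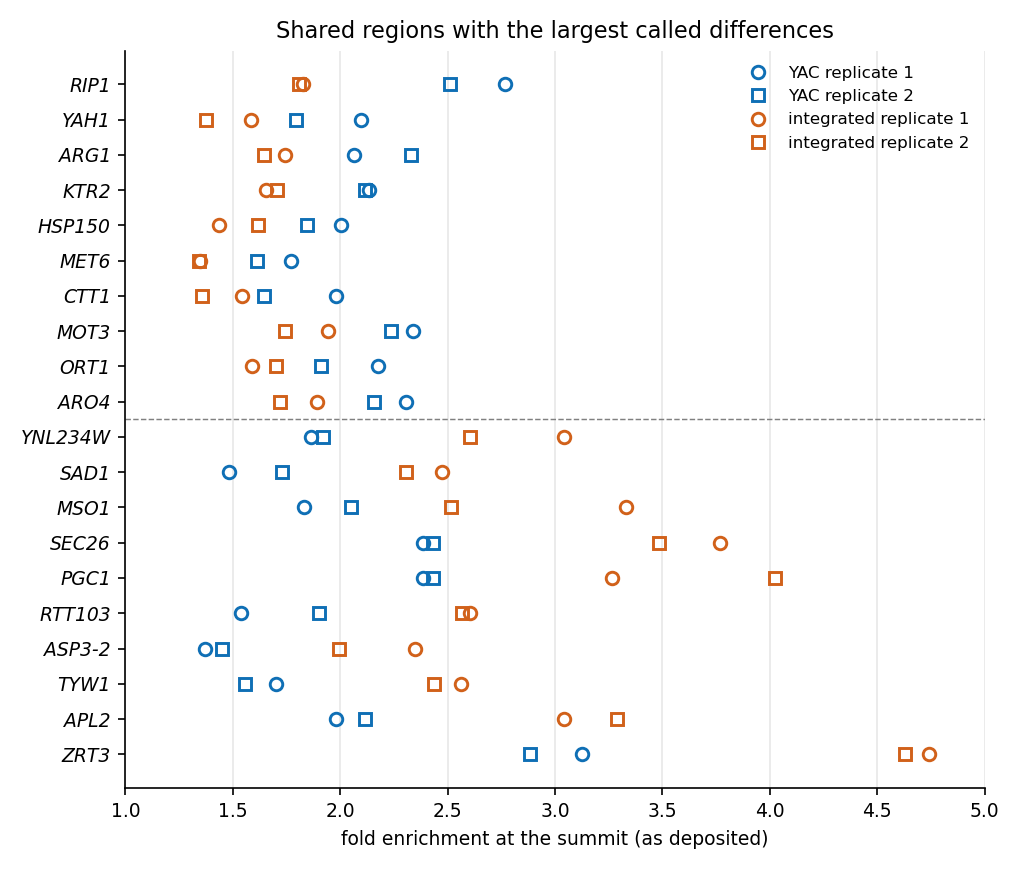
Fold enrichment at the summit (x axis) in each library for the 10 shared regions with the largest called difference in each direction, YAC-higher above the dashed line. RIP1 separates at 2.77 and 2.51 against 1.83 and 1.81, and ZRT3 at 3.13 and 2.88 against 4.74 and 4.63.

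The width of the mark gave no calls. With limma on the bases under peaks, 0 of 3013 regions passed in either direction, and 327 had an unadjusted p under 0.05. Both integrated values exceeded both YAC values at 37.4% of shared nuclear regions for width and at 62.3% for uncentred fold enrichment, and the reverse held at 11.6% and 3.62%.

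Genes grouped by pathway moved little. The lists follow what leucine-free synthetic and rich media are known to touch. Over all 3013 tested regions, 1.39% were called higher in the YAC strain and 0.929% higher in the integrated strain. Over all 3830 merged regions, 1.49% were YAC-only and 2.53% were integrated-only. Leucine and branched-chain amino acid synthesis had 8 tested members with a median log2 difference of −0.04, where the median over all 3013 regions was −0.000607. Its one call was LEU1, isopropylmalate isomerase, with fold enrichments of 2.06 and 2.01 in the YAC libraries and 3.03 and 2.86 in the integrated libraries (−0.36, limma adjusted p = 0.0433), opposite in direction to ARG1 and ARO4. The LEU1 call was lost after quantile normalization, and its log2 difference in the synHPRT1R strains was −0.04. LEU3, the regulator of the pathway (0.08), LEU9 (−0.07) and BAT1 (−0.15) did not pass, and LEU4 had no peak summit in its start window. Other amino acid synthesis had 28 tested members with a median of 0.09. Of these, 2 rose in the YAC strain (ARG1 and ARO4) and none fell. The arginine genes ARG3 (0.07), ARG4 (0.12), ARG56 (−0.06) and ARG8 (−0.09) did not pass. In the sulfur and methionine list, MET6 rose among 8 tested members (median 0.07), and SUL2, a sulfate permease, was YAC-only at 1.39 and 1.46.

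The remaining lists held few or no calls. Iron and copper uptake had 6 tested members and no call, with FRE1 integrated-only, FET3 at −0.06 and FTR1 at 0.27, and FIT1 and FIT2 had no peak summit in the start window. Vitamin genes had 5 tested members and no call, with BIO4 of biotin synthesis YAC-only at 1.39 and 1.69. Respiratory and oxygen-regulated genes had 2 tested members and no call, with COX4, a cytochrome c oxidase subunit, YAC-only at 1.74 and 1.40. In the synHPRT1R strains the COX4 region had peaks in both YAC and both integrated libraries. Cell wall genes of the PIR, TIR and DAN families had 2 tested members, of which HSP150 was higher in the YAC strain, and 9 of 16 had no peak over the start window. Upstream of TIR1 (408 bp) and CWP1 (342 bp), however, lay integrated-only regions, at 1.85 and 1.85 and at 1.499 and 1.58. No member was called or context-restricted in purine synthesis (9 tested, median 0.05), amino acid permeases (4, 0.20), inositol and phospholipid synthesis (4, 0.07), phosphate genes (2, −0.16), galactose genes (1, 0.13), the constitutive list (6, 0.12) or COMPASS (5, −0.05). Hexose transporters had no member in the test, and 9 of 12 had no peak over the start window.

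Motifs of regulators of these pathways were counted in RefSeq promoters, from 250 bp before to 50 bp after the coding start on both strands. TGACTC, bound by Gcn4, was found in 7.98% of all 6002 promoters, in 5 of the 35 gene-start regions higher in the YAC strain (14.3%), in 1 of 21 higher in the integrated strain (4.76%), in 3 of 36 YAC-only (8.33%) and 3 of 63 integrated-only gene starts (4.76%), in 58.3% of the leucine and branched-chain list and in 19 of 38 members of the other amino acid list. It was absent from the ARG1 window shown above. AGGGG, bound by Msn2 and Msn4, was found in 21.6% of all promoters, in 3 of 35 YAC-higher (8.57%), 4 of 21 integrated-higher (19.0%), 11 of 36 YAC-only (30.6%) and 14 of 63 integrated-only gene starts (22.2%). CACGTG, bound by Cbf1 and Pho4, was found in 2.92% of all promoters in 1 of 35 YAC-higher gene starts, that of MET22, in none of the integrated-higher or YAC-only and in 2 of 63 integrated-only gene starts. TCGTATA, bound by Upc2, was found in 4.15% of all, in 2 of 35 YAC-higher and in 1 of 63 integrated-only gene starts, and in none of the other sets. These counts describe letters in a window and were not tested.

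The same contrast was available in the synHPRT1R strains, in libraries that the rule did not use. The YAC-only pattern was shared by 11 of 57 regions, which is 19.3% of the YAC-only regions here and 21.6% of the 51 in the synHPRT1R strains. The integrated-only pattern was shared by 21 of 97 (21.6% and, of 110, 19.1%). Over all 3830 regions these patterns were found in the synHPRT1R libraries at 1.38% and 2.32%. The pattern was turned round at 3 and 3 regions. The shared YAC-only regions included LEU2, HDA2, CYC1 and COX12, a further cytochrome c oxidase subunit, and the shared integrated-only regions included the left border of the insertion site, AHC2, VPS53, HSP150 and TIR1. Of the called shared regions, 24 of 29 YAC-higher and 20 of 28 integrated-higher regions that could be read in all 8 libraries had the same sign in the synHPRT1R strains, with median log2 differences of 0.10 and −0.04. Over all 2702 such regions 52.4% were positive. Fitted in these regions with limma, the synHPRT1 contrast called 21 and 11 and the synHPRT1R contrast called 0 and 0, with 279 at an unadjusted p under 0.05. The context by locus interaction, tested with limma in these regions, called none (298 with an unadjusted p under 0.05). Without synHPRT1R YAC replicate 2 it called 54 and 33.

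On the synthetic contig the 2 contexts differed in the amount of signal far more than in its position. The locus held 58 and 59 peaks in the YAC libraries and 50 and 49 in the integrated libraries, covering 43.3% and 45.1% of it against 31.6% and 31.4%. When peaks within 500 bp were merged, the difference in the mean number of locus peaks turned from 9 more in the YAC libraries to −3.5, while the difference in percent covered stayed positive at 16.6. Fragments at the summit, relative to the genome-wide background of the library, had a median of 9.21 and 8.99 in the YAC libraries and of 2.05 and 1.99 in the integrated libraries, where nuclear peaks had 2.16 and 2.17 and 2.62 and 2.52. The local background under the locus peaks was raised likewise, at 4.96 and 5.21 times the genome-wide value in the YAC libraries and 1.08 and 1.06 times in the integrated libraries. Fold enrichment over that local background was therefore close, with medians of 1.83 and 1.74 against 1.83 and 1.77. The number of YAC copies per cell was not measured in these files, and its part in the signal was not tested. The authors estimated it from whole-genome sequencing and corrected the coverage of the YAC loci for it. With that correction they reported more H3K4me3 coverage over the YAC loci than over the genome on average. Their estimate was not used here.

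Merging gave 66 contig regions, 62 in the locus and 4 in the vector. In the locus, 38 regions had a peak in all 4 libraries, and over them the fragments ratio of YAC to integrated was 4.79 (median, range 3.17 to 6.05), whereas the log2 difference of fold enrichment had a median of 0.03 (−0.64 to 0.42). Single regions differed in how close the contexts lay. The region at 55474 to 57025 bp of the contig had fold enrichments of 3.07 and 2.81 in the YAC libraries and 2.98 and 2.78 in the integrated libraries, and the region at 75825 to 78423 bp had 2.80 and 2.64 against 2.73 and 2.73. The region at 49846 to 51600 bp was higher in the YAC libraries, with 2.94 and 2.82 against 2.37 and 2.36. Both YAC values exceeded both integrated values at 12 of the 38 regions, the reverse held at 4, and the values overlapped at 22. Bases under peaks, summed per region, were higher in both YAC libraries than in both integrated ones at 28 of the 38 regions (73.7%). This order held at 11.6% of shared nuclear regions. Locus peaks lay further above the calling limit in the YAC strain (median −log10 q 51.3 and 47.6) than in the integrated strain (10.4 and 10.0). The part of this gap in the bases under peaks and in the percent of the locus covered was not tested.

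Context-restricted regions on the contig were mostly in the YAC strain, where weaker enrichments on the locus could be called. The part of this calling limit in the counts was not tested. The context-restricted regions numbered 13 in the YAC libraries (19.7% of contig regions), of which 10 were in the locus and 3 in the vector. In the integrated libraries there was 1 (1.52%), at 86600 to 86884 bp. The vector is not in the integrated strain. Within the locus the strongest YAC-only regions were those at both ends, at 62 to 1841 bp (fold enrichment 2.13 and 2.06) and at 99887 to 101033 bp (2.46 and 2.60). The second of these runs into the vector. The region next to it, at 97571 to 99495 bp, was the one with the largest difference in the other direction, with 1.87 and 2.05 in the YAC libraries and 3.25 and 2.86 in the integrated libraries, and its peaks covered 1925 and 1865 bp in the integrated libraries and 935 and 1057 bp in the YAC libraries. The other 8 YAC-only locus regions had fold enrichments of 1.20 to 1.58.

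**Figure D5:**
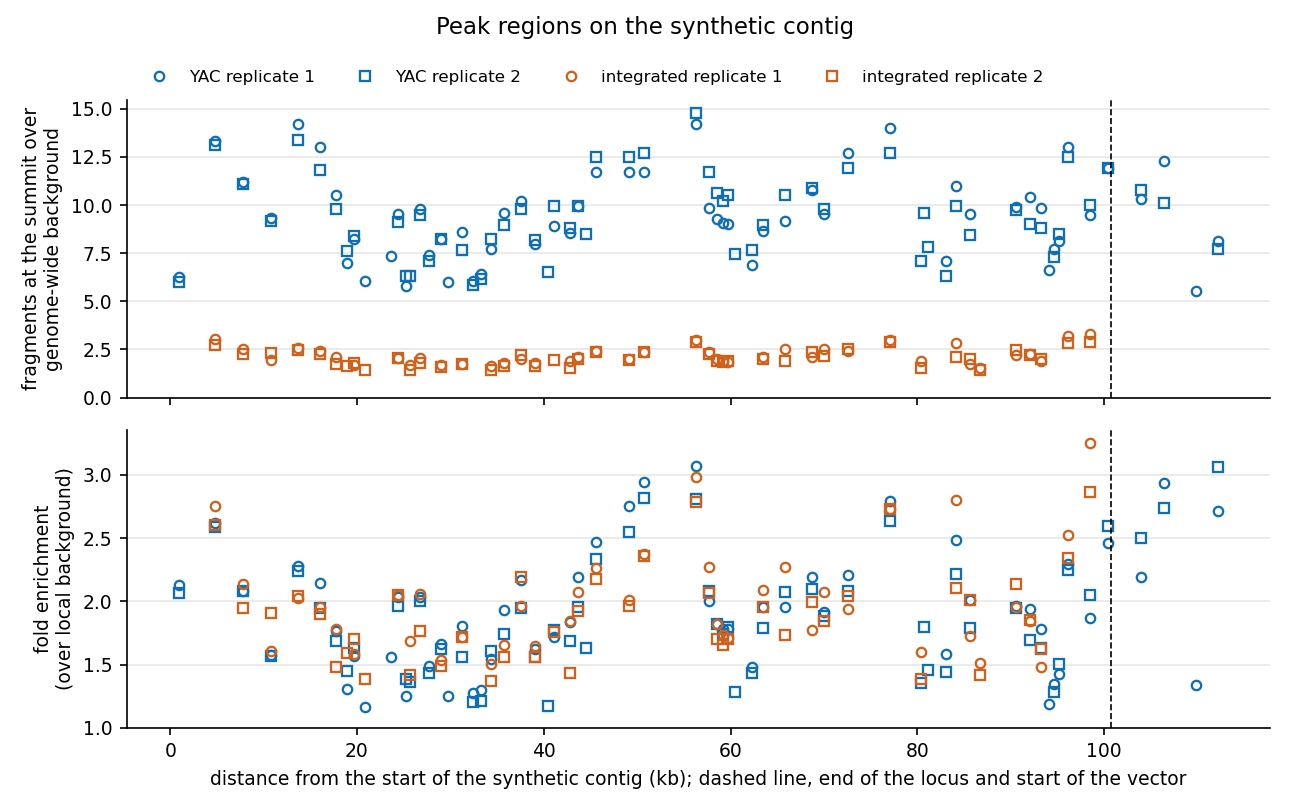
Fragments at the summit over the genome-wide background (top) and fold enrichment over the local background (bottom) of each contig region, against distance from the start of the contig in kb, with 1 symbol per library. At the 38 regions shared by the libraries the YAC values were 3.17 to 6.05 times the integrated values in the upper panel, whereas the log2 difference in the lower panel had a median of 0.03.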

How the data were processed

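CUT&RUN for H3K4me3 was analysed in 4 libraries, 2 per context. As the labels and the published methods state, the authors used Trimmomatic on the reads, aligned pairs with Bowtie2 2.2.9 to sacCer3 plus the synthetic contig and called peaks per library with MACS2 2.1.0 without a control. The deposited lists give a fold enrichment (a ratio to the local background), −log10 p and −log10 q at each summit. Peaks called without an IgG control also carry local accessibility and copy number.

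Peaks were merged where they touched. A region separated the contexts when both libraries of one side and neither of the other had a peak. Regions with peaks in all libraries were fitted in limma 3.58.1 (R 4.3.3) on log2 fold enrichment of the strongest peak, with Benjamini-Hochberg adjustment, and the fit was tested on simulated data. With 3013 simulated regions and 50 changed at each of 4 sizes it recovered 76% of differences of 0.35, 92% of 0.5 and 100% of 0.7 and 1 on the log2 scale, with 11 false calls over all sizes together. Whole fragments at each summit were solved from the deposited fold enrichment and −log10 p. Genes came from RefSeq R64, the same build. Members, lists and motifs were chosen with earlier results of these data known. Named were the marker and 3 constitutive genes, the 12 strongest separating regions per direction by −log10 q, the 10 shared regions per direction with the largest called difference, the contig regions and insertion site, and list members that separated or passed, with examples in list order. List genes were matched by symbol or older symbol, all but 1. Alternatives covered peak thresholds, merging, overlap, centring, a replicate block and leaving out each library. Mitochondrial peaks entered no comparison. One list member is not reported here.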

Additional observations from a re-analysis of the deposited data

Results flagged for a closer look

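Peaks on the mitochondrial chromosome entered no comparison, and they were present in every library. There were 23 in YAC replicate 1, 37 in YAC replicate 2, 19 in integrated replicate 1 and 20 in integrated replicate 2.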

How the results depend on the processing

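The count of context-restricted nuclear regions moved with the peak threshold and with single libraries. With peaks of a −log10 q of at least 10 the counts were 28 YAC-only and 177 integrated-only, with the 3000 strongest peaks per library 33 and 149, and where peaks had to cover at least 50% of a region 169 were integrated-only. Leaving out 1 library gave 83 to 153 YAC-only and 152 to 282 integrated-only regions, where one side then rests on 1 library. Over the named regions and alternatives, the pattern was kept 93 times and lost 15 times for YAC-only regions, and kept 107 times and lost 1 time for integrated-only regions. The alternatives that left out 1 library could not lose a pattern, so their part of these counts was fixed in advance. Over all regions, 4 of 57 YAC-only and 24 of 97 integrated-only regions were kept at a −log10 q of at least 10.

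Calls in shared regions became 72 and 52 (YAC-higher and integrated-higher) with a replicate block, although same-numbered libraries did not deviate together (correlation 0.00338), 12 and 776 without centring, 6 and 2 after quantile normalization, and 19 and 5 in regions with a mean −log10 q of at least 10. Fragments over the genome-wide background gave 89 YAC-higher. Leaving out 1 library gave 12 to 91 and 10 to 60. None of the named shared regions reversed, and over these regions and alternatives the call was kept 125 times and lost 61 times. The interaction called 0 to 54 and 0 to 33 when 1 library was left out. The cause was not tested.

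On the contig, integrated-only regions numbered 0 at a −log10 q of at least 5, 0 at 10 and 0 with the 3000 strongest peaks, and 1 to 3 when 1 library was left out, and YAC-only regions numbered 21 with the 3000 strongest peaks. The difference in locus peaks was 26 at a −log10 q of at least 10, 27.5 with the 3000 strongest peaks and −3.5 with peaks within 500 bp merged, and the difference in percent covered was 19.3, 20.5 and 16.6.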

Other observations

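Further regions passed the test in the YAC direction and were picked out after their values were seen. ERG11 and ERG25, enzymes of ergosterol synthesis, had log2 differences of 0.43 and 0.46 (limma adjusted p = 0.0258 and 0.0206), with the ERG25 summit 569 bp upstream of the gene. ERG26, of the same pathway, carried an integrated-only region instead, and had the same pattern in the synHPRT1R strains. Its fold enrichments were 1.42 and 1.46, with a −log10 q of only 3.22 and 3.86. RGT2, a glucose sensor, and MTH1, a regulator of hexose transporter genes, had 0.45 and 0.37. MET22 and STR2, of sulfur metabolism, had 0.44 and 0.43. FKH1, a forkhead transcription factor, had 0.46. In the integrated direction, PIS1, phosphatidylinositol synthase, had −0.35, UTR2, a cell wall enzyme, had −0.40 and AAH1, adenine deaminase, had −0.36. None of these called regions was called after quantile normalization. Of the 9 alternative fits, ERG25 and FKH1 were called in 6 and RGT2 in 5. ERG11, MET22 and STR2 were called in 4, PIS1, UTR2 and AAH1 in 3 and MTH1 in 2. In the synHPRT1R strains the difference was −0.04 at ERG25. The others that could be read there kept their sign.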
